A study of Mus musculus with 8 samples.

Results

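The 10 genes described here carry or respond to the signal of leukaemia inhibitory factor (LIF) in mouse embryonic stem cells: Lifr, Il6st, Jak1, Stat3, Socs3, Socs2, Pim1, Pim3, Junb and Gbx2. They were chosen by name as parts of the pathway, with earlier results of these data known. All 10 were found among the 17728 gene identifiers kept and among the 11269 genes tested. RNA had been measured in E14TG2a cells, a line of strain 129/Ola, in 4 groups of 2 samples: unedited cells (WT) and cells in which CRISPR/Cas9 had removed 1 of 3 enhancers (E1-KO, E2-KO and E3-KO). The study concerned how enhancers and promoters associate around Sox2. All 4 groups, WT included, grew without feeder cells in medium with serum, 1000 U/mL LIF, the GSK3 inhibitor CHIR99021 and the MEK inhibitor PD0325901, at passages 3 to 6, so no group lacked LIF. The labels do not place the enhancers and do not say whether a knockout is 1 clone. An edited line with its enhancers intact was not analysed here, so enhancer loss cannot be told apart from editing, clone, culture or library differences.

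LIF binds the receptor chain encoded by Lifr, which pairs with the shared chain gp130 encoded by Il6st. Kinases of the JAK family on the receptor then phosphorylate the transcription factor STAT3, which moves to the nucleus and switches on its targets, among them the feedback inhibitor Socs3. In mouse embryonic stem cells this signal is known for sustaining self-renewal. RNA levels, which are all that was measured here, do not report phosphorylation of STAT3.

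Of these genes, 7 were below WT in every knockout sample, beside 28.5% of all tested genes. Pim1, a STAT3-responsive kinase gene, had the largest estimated fall of the 10 in each knockout. In E3-KO Socs2 was close to it (-1.23 against -1.35), and without E3-KO replicate 1 the order turned (-1.51 against -1.43). The receptor chain Il6st, Stat3 itself, Socs2, Pim1 and Pim3 were lower in all 3 knockouts by limma-trend (adjusted p under 0.05, adjusted over all tested genes). By the same rule, 13% of all tested genes were lower in all 3. Lifr passed for E2-KO and E3-KO, and Socs3 for E3-KO alone. Jak1, Junb and Gbx2 were called against WT in no knockout. Levels are FPKM, a read-based level divided by the length of the transcript and the size of the library, and changes are differences of log2(FPKM + 1), which understate the change of low genes.

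Over all tested genes, 38% were called between E1-KO and WT (23% lower and 15% higher), 36.1% between E2-KO and WT (22% lower and 14.2% higher) and 44.7% for E3-KO (30.8% on the lower side, 13.9% on the higher). Against these shares, limma-trend called 5 of the 10 genes lower when E1-KO was compared, 6 with E2-KO and 7 with E3-KO, and it called 0 higher with any of them. After quantile normalization the 10 genes held 6, 5 and 7 lower calls and 1, 1 and 2 higher calls, and after median-ratio scaling 5, 4 and 7 lower and 1, 1 and 1 higher. At an unadjusted p under 0.05, 1 gene was higher for E1-KO and 1 for E2-KO, which was Gbx2 in both, and 0 for E3-KO. Called lower by all 3 knockouts were 5 of the 10, beside 13% of all tested genes, and called higher by all 3 were 0, beside 6.56%.

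Counted by samples alone, both E1-KO samples were below both WT samples for 7 genes (44% of all tested genes) and above them for 1 (33%). For E2-KO these counts were 7 (42.2%) and 2 (29.6%), and for E3-KO 8 (48.4%) and 1 (25.7%). All 6 knockout samples lay below WT for 7 of the 10, beside 28.5%, and above WT for 0, beside 15.3%. The median change of the 10 genes stood at -0.38 (E1-KO), -0.40 (E2-KO) and -0.60 (E3-KO) against WT, while that of all tested genes was -0.06, -0.08 and -0.15. The shift of all genes depends on scaling: for E3-KO, 1566 genes were called higher and 3470 lower as deposited, 2276 and 2458 after quantile normalization and 2379 and 2353 after median-ratio scaling. For E1-KO the pairs were 1694 and 2590, 2041 and 2132, and 2089 and 2136, and for E2-KO 1595 and 2476, 1880 and 2000, and 2063 and 1911. Relative to the median of all genes, the 7 genes called for E3-KO changed by between -0.36 (Socs3) and -1.20 (Pim1). The 3 comparisons share the WT samples, and the calls leaned on them. Without WT replicate 2 the counts of the 10 genes called were 3, 2 and 5. Without E1-KO replicate 1 the count for E1-KO was 3, and with no filter on low values that for E2-KO was 3.

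Sox2, around which the enhancers were studied, was 130.5 and 136.3 FPKM in WT, with E1-KO at 58.0 and 60.3, E2-KO at 113.6 and 97.5 and E3-KO at 97.7 and 91.0. The 8 samples held 11075 to 11262 genes at 1 FPKM or more, and their depth relative to WT replicate 1, read from the steps between low values, was roughly 0.785 to 1.01. Absolute depth is unknown. Summed over 8 embryonic stem cell markers (Pou5f1, Nanog, Sox2, Esrrb, Zfp42, Sall4, Dppa5a and Tdgf1), each library held 2090 to 2676 FPKM, against 3.78 to 6.76 for 8 fibroblast markers, 0.737 to 4.69 for the 5 of 7 primitive endoderm markers in the files and 23.0 to 42.4 for 6 trophectoderm markers. Of the latter lists, 6, 4 and 3 genes had a mean under 1 FPKM, and 4, 2 and 3 genes were listed at 0 in some libraries (Col1a2, Col3a1, Lum and Dcn, then Foxa2 and Sox7, then Cdx2, Elf5 and Krt7). These sums moved with the groups. The fibroblast sum was 4.20 to 6.76 in the knockouts, above both WT samples (3.78 and 4.06). Of the 2 fibroblast markers tested, Thy1 was called higher in all 3 knockouts (1.03, 0.51 and 1.06). Pdgfrb did not rise (-0.01, -0.36 and -0.43) and was called in none. Col1a1 and Twist1 were too low to be tested, at most 0.986 and 1.58 FPKM in any sample. Their means in E1-KO, E2-KO and E3-KO were 183%, 218% and 147% of WT for Col1a1 and 154%, 165% and 188% for Twist1. Whether the fibroblast markers rose as a group was not tested. The primitive endoderm sum was 4.69 and 2.44 in E3-KO, against 1.59 and 1.65 in WT, with Gata6 called higher there (0.79). In E3-KO this sum is mostly Gata6, at 3.72 and 1.76 FPKM, so the 2 are not separate observations. Gata6 was the only marker of this list that was tested. The trophectoderm sum was 23.0 to 31.7 in E1-KO and E2-KO, against 39.4 and 41.7 in WT. Tfap2c was called lower in both (-1.01 and -0.64), and this sum is mostly Tfap2c, at 32.4 and 34.9 FPKM in WT. Eomes (0.41 and -0.20) and Gata3 (0.05 and 0.75) were not called in E1-KO or E2-KO. In E3-KO, Gata3 was called higher (1.59), while Tfap2c (-0.27) and Eomes (-0.16) were not called. The trophectoderm sum there, 42.4 and 36.5, overlapped with WT. Thy1 and Gata6 passed the filter on low values mainly through the groups where they are high. The part of other cell types in the results was not tested. In bulk RNA, fewer cells of a type and less RNA per cell cannot be told apart.

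In WT the order of the levels, which are scaled by transcript length, was Pim1 (104.1 FPKM), Socs3 (66.3), Stat3 (53.6), Pim3 (48.4), Socs2 (39.7), Il6st (34.7), Lifr (27.0), Jak1 (15.2), Junb (15.0) and Gbx2 (2.22). Stat3 and Pim3 overlapped between their WT samples, as did Jak1 and Junb, and all other neighbours in this order were apart. Pim1 stood at percentile 93.6 of the tested genes in WT and Gbx2 at percentile 10.9. The genes lie on 8 chromosomes, with Stat3 and Socs3 both on chromosome 11 and Lifr and Pim3 both on chromosome 15.

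**Figure D1:**
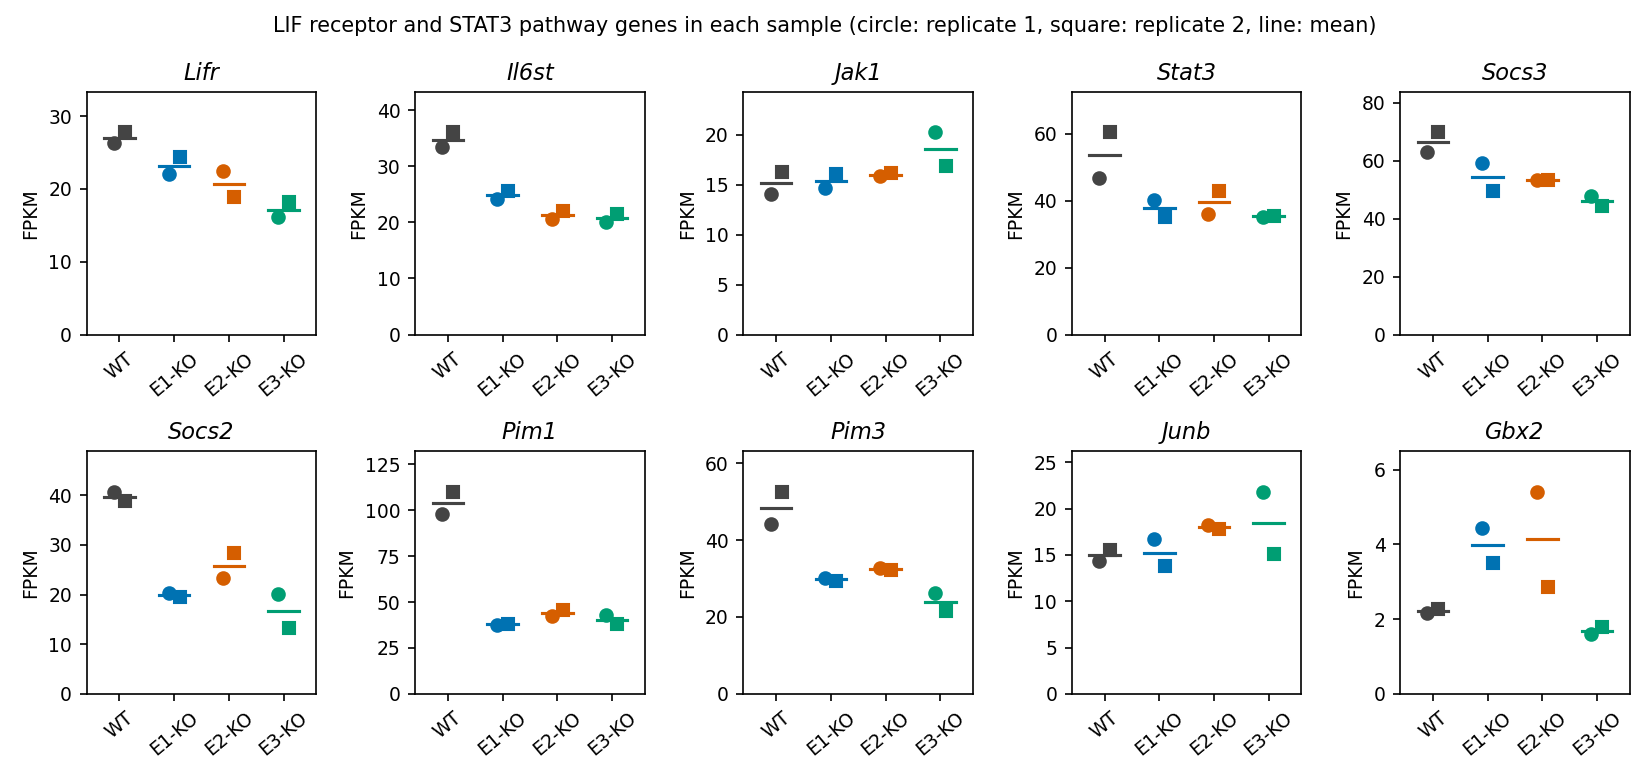
FPKM (vertical axes, from 0) of each gene in the 8 samples, by group, with replicate 1 as a circle, replicate 2 as a square and the group mean as a line. The 2 WT samples lie above all 6 knockout samples for Lifr, Il6st, Stat3, Socs3, Socs2, Pim1 and Pim3, with the widest gap for Pim1 (98.1 and 110.1 FPKM in WT, at most 45.6 in a knockout).

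Since these genes moved together in part, the 250 bases before their RefSeq start sites were searched for TTCNNNGAA, the core that STAT proteins bind, which reads the same on both strands. RefSeq (build GRCm38.p6) gave 11 start sites for 9 of the 10 genes, with Socs2 unmatched. Socs3 held the motif once, and it was the only 1 of the 11 windows to do so, whereas 7.02% of 32851 promoter windows of all genes held it. The stricter TTCCNGGAA, a subset of the same motif, was in 0 of the 11 and in 0.913% of all. A match is a description of letters only, and these windows leave out more distant elements. The sequences of Socs3, which holds the motif (in capitals, starting 154 bases before the start site), of Pim1, which was lower in all 3 knockouts under every alternative tried, and of Stat3 are printed 5′ to 3′ on the strand of the gene. The positions are chr11:117969367-117969616 (minus strand) for Socs3, chr17:29490535-29490784 (plus strand, the first of 2 starts) for Pim1 and chr11:100939541-100939790 (minus strand) for Stat3.
Socs3: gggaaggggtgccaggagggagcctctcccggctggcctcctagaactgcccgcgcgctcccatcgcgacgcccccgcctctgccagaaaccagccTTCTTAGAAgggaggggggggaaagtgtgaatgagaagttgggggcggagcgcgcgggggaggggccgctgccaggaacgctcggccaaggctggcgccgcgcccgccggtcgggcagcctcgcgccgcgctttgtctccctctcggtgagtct
Pim1: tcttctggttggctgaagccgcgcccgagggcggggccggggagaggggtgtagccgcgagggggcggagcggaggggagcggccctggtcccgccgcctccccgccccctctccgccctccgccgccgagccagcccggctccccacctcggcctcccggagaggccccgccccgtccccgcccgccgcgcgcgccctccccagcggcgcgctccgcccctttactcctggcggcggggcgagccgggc
Stat3: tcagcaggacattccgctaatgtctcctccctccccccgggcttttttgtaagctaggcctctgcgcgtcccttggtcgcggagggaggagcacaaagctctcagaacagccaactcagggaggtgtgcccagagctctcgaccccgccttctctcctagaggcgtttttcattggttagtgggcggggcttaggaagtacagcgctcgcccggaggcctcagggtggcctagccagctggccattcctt

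The 11 windows, which cover 9 of the 10 genes, were rich in G and C beside all promoter windows. Windows of the tested genes alone were not compared, so no trait particular to these genes is shown. Their median GC content was 66.0% over the 11 windows (from 48.0% for the other start of Pim1 to 82.4% for the Pim1 window printed and for 1 of 2 windows of Lifr), against a median of 52.4% and quartiles of 45.2% and 61.2% over all windows. The Pim1 window printed held 36 CG pairs, that of Socs3 26 and that of Stat3 13, where the median of all windows was 6.

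Il6st (ENSMUSG00000021756), the signalling chain shared by LIF and its related cytokines, was 33.3 and 36.0 FPKM in WT, with E1-KO at 24.1 and 25.6, E2-KO at 20.7 and 21.9 and E3-KO at 20.1 and 21.6. Each of the 6 knockout samples lay under both WT samples. The E1-KO samples were also above those of E2-KO and E3-KO, but limma-trend called neither difference (adjusted p = 0.291 and 0.104). The log2 change was -0.47 ± 0.10 (SE, n = 2 per group, limma-trend adjusted p = 0.00712) for E1-KO, -0.68 (adjusted p = 0.0014) for E2-KO and -0.71 (adjusted p = 0.000793) for E3-KO. The call in E1-KO was lost without WT replicate 2 (adjusted p = 0.0706) or E1-KO replicate 1 (adjusted p = 0.0641).

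Lifr (ENSMUSG00000054263), the chain specific to LIF and a few relatives, was 26.3 and 27.8 FPKM in WT, with E1-KO at 22.1 and 24.3, E2-KO at 22.5 and 18.9 and E3-KO at 16.1 and 18.2. The knockout samples were again all below WT, and those of E3-KO were the lowest. Its log2 change was -0.21 (SE 0.12, limma-trend adjusted p = 0.187) for E1-KO, -0.37 (adjusted p = 0.0363) for E2-KO and -0.63 (adjusted p = 0.00308) for E3-KO. The call in E2-KO did not hold under 10 of 17 alternatives, among them median-ratio scaling (-0.29, adjusted p = 0.0894) and the fit with the replicate number as a block (adjusted p = 0.0517). Il6st over Lifr, a ratio of 2 FPKM levels, was 1.27 and 1.30 in WT, with E1-KO at 1.09 and 1.05, E2-KO at 0.92 and 1.16 and E3-KO at 1.25 and 1.19. All 6 knockout ratios were below both WT ratios, with those of E3-KO nearest to WT.

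Jak1 (ENSMUSG00000028530), the receptor-bound kinase, was 14.1 and 16.2 FPKM in WT, with E1-KO at 14.7 and 16.1, E2-KO at 15.9 and 16.2 and E3-KO at 20.2 and 16.9. E1-KO and E2-KO overlapped with WT, whereas both E3-KO samples were above it. The log2 changes were 0.02 (95% interval -0.26 to 0.30), 0.08 (-0.20 to 0.36) and 0.27 (-0.01 to 0.55, limma-trend adjusted p = 0.101). In E3-KO the difference passed with median-ratio scaling (0.44, adjusted p = 0.0143), quantile normalization (0.47, adjusted p = 0.0107) and without E3-KO replicate 2 (0.40, adjusted p = 0.0491). Raver2 and the small nuclear RNA gene Gm24468 overlap Jak1 on the opposite strand in the annotation, and the processed pseudogene Gm12785 overlaps it on the same strand.

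Stat3 (ENSMUSG00000004040), the transcription factor of the pathway, was 46.8 and 60.5 FPKM in WT, with E1-KO at 40.3 and 35.2, E2-KO at 36.2 and 43.0 and E3-KO at 35.2 and 35.5. The groups did not overlap with WT, although the WT samples were far apart and those of E3-KO were close together. The log2 change was -0.49 ± 0.14 (SE, n = 2 per group, limma-trend adjusted p = 0.0246) for E1-KO, -0.42 (adjusted p = 0.0434) for E2-KO and -0.58 (adjusted p = 0.0101) for E3-KO. WT replicate 2 was the high sample, and without it no knockout passed (-0.31, -0.24 and -0.39, with adjusted p = 0.197, 0.306 and 0.0947). In E2-KO, 12 of 17 alternatives lost the call, with adjusted p-values from 0.0317 to 0.306 over all of them (0.051 with the replicate block). Stat3 overlaps Stat5a on the opposite strand in the GENCODE annotation, and reads from such partners cannot be told apart where the counting did not use strand.

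Socs3 (ENSMUSG00000053113), the feedback inhibitor that binds gp130 and JAK kinases, was 62.9 and 69.7 FPKM in WT, with E1-KO at 59.0 and 49.4, E2-KO at 53.5 and 53.4 and E3-KO at 48.0 and 44.3. E3-KO held the 2 lowest samples, below all others. Only E3-KO passed against WT (log2 change -0.51, SE 0.11, limma-trend adjusted p = 0.00604), and without WT replicate 2 it did not (-0.44, adjusted p = 0.0608). In E1-KO the change was -0.29 (adjusted p = 0.0697) and in E2-KO -0.30 (adjusted p = 0.0613), which passed after quantile normalization (-0.34 and -0.36, adjusted p = 0.0365 and 0.0316). Set against E1-KO, E3-KO differed by -0.22 (95% interval -0.48 to 0.03) and did not pass, so the larger change in E3-KO is not shown to differ from that in E1-KO. Socs3 over Stat3 was 1.34 and 1.15 in WT and 1.24 to 1.48 in the knockouts, so that this ratio of levels overlapped between WT and knockouts.

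Socs2 (ENSMUSG00000020027), a related inhibitor best known for restraining growth hormone signalling through STAT5, was 40.7 and 38.8 FPKM in WT, with E1-KO at 20.4 and 19.5, E2-KO at 23.4 and 28.3 and E3-KO at 20.2 and 13.3. Its mean was 50.2% of the WT mean with E1-KO, 65.0% with E2-KO and 42.2% with E3-KO. The log2 change was -0.96 ± 0.17 (SE, n = 2 per group, limma-trend adjusted p = 0.00324) for E1-KO and -1.23 (adjusted p = 0.000806) for E3-KO, at percentiles 4.2 and 2.9 of the changes of all tested genes. In E2-KO it was -0.61 (adjusted p = 0.0242), which did not pass with no filter on low values (adjusted p = 0.0596) or without E2-KO replicate 1 (-0.48, adjusted p = 0.128), WT replicate 1 (adjusted p = 0.115) or WT replicate 2 (adjusted p = 0.0907).

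Pim1 (ENSMUSG00000024014), a serine/threonine kinase that promotes survival and is a classic STAT3 target, was 98.1 and 110.1 FPKM in WT, with E1-KO at 37.4 and 38.2, E2-KO at 42.6 and 45.6 and E3-KO at 42.7 and 37.8. All 6 knockout samples lay between 37.4 and 45.6 FPKM, far under both WT samples. The group means were 36.3%, 42.3% and 38.7% of WT. The log2 change was -1.44 ± 0.10 (SE, n = 2 per group, limma-trend adjusted p = 6.62e-05) for E1-KO, -1.22 (adjusted p = 0.000144) for E2-KO and -1.35 (adjusted p = 7.11e-05) for E3-KO. These changes lay at percentiles 1.2, 1.9 and 2.0 of those of all tested genes. They passed under all 17 alternatives, with log2 changes from -1.52 to -1.13 over the 3 knockouts. An antisense gene, Gm26885, overlaps Pim1 in the annotation. None of its promoter windows held TTCNNNGAA.

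Pim3 (ENSMUSG00000035828), a kinase of the same family, was 44.2 and 52.6 FPKM in WT, with E1-KO at 30.2 and 29.5, E2-KO at 32.8 and 32.2 and E3-KO at 26.3 and 21.6. The replicates of E1-KO and E2-KO were within 1 FPKM of each other, and E3-KO was below both. Its log2 change was -0.67 ± 0.12 (SE, n = 2 per group, limma-trend adjusted p = 0.00338) for E1-KO, -0.56 (adjusted p = 0.00852) for E2-KO and -0.99 (adjusted p = 0.000434) for E3-KO. The call in E2-KO was lost without WT replicate 2 (-0.43, adjusted p = 0.0845). Pim1 over Pim3 was 2.22 and 2.09 in WT, with E1-KO at 1.24 and 1.30, E2-KO at 1.30 and 1.42 and E3-KO at 1.62 and 1.75. Pim1 over Stat3 was 2.10 and 1.82 in WT and 0.926 to 1.21 in the knockouts. In both ratios the WT samples stood above every knockout sample, so the level of Pim1 was lower relative to Pim3 and to Stat3 as well.

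Junb (ENSMUSG00000052837), an AP-1 factor that responds early to many cytokines, was 14.3 and 15.6 FPKM in WT, with E1-KO at 16.7 and 13.8, E2-KO at 18.2 and 17.8 and E3-KO at 21.8 and 15.0. Only E2-KO was apart from WT, above it. The log2 changes were 0.02 (95% interval -0.36 to 0.40), 0.25 (-0.12 to 0.63) and 0.26 (-0.11 to 0.64), and limma-trend adjusted p-values were 0.931, 0.261 and 0.227. In E3-KO the difference passed without E3-KO replicate 2 (0.52, adjusted p = 0.0257) and after quantile normalization (0.47, adjusted p = 0.0435). Junb overlaps Prdx2 on the opposite strand in the annotation.

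Gbx2 (ENSMUSG00000034486), a homeobox gene that can sustain self-renewal downstream of LIF when overexpressed, was the lowest of the 10. It stood at 2.18 and 2.26 FPKM in WT, with E1-KO at 4.44 and 3.51, E2-KO at 5.41 and 2.86 and E3-KO at 1.59 and 1.78. Both E1-KO and both E2-KO samples were above WT, and both E3-KO samples were below it. The log2 change was 0.62 ± 0.23 (SE, n = 2 per group, limma-trend adjusted p = 0.0557) for E1-KO, 0.63 (adjusted p = 0.0553) for E2-KO and -0.26 (adjusted p = 0.374) for E3-KO. The first 2 differences passed with median-ratio scaling (0.67, adjusted p = 0.042, and 0.69, adjusted p = 0.04), as they did after quantile normalization. The E2-KO samples were far apart, and without E2-KO replicate 2 the change was 0.995 (adjusted p = 0.00616), while without E2-KO replicate 1 it was 0.26. The files hold 2 rows for the Gbx2 identifier. The row used is the one in the place of Gbx2 in the row order, and the other, which lies outside that place, held 0.198 to 1.22 FPKM. D130058E05Rik overlaps it on the opposite strand. Adding the rows gave 0.73 (adjusted p = 0.0296) for E1-KO.

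**Figure D2:**
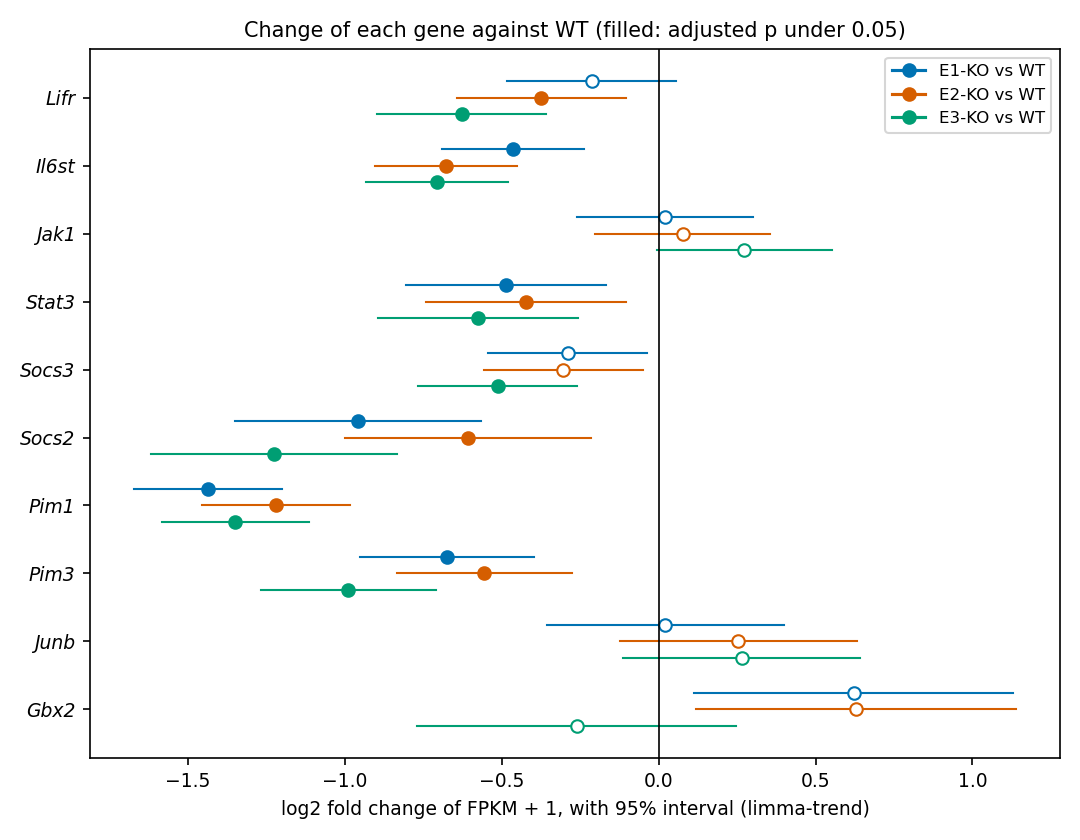
Change of each gene against WT (horizontal axis, log2 difference of FPKM + 1) in E1-KO, E2-KO and E3-KO, with the limma-trend estimate as a point, filled where the adjusted p was under 0.05, and its 95% interval as a line. Pim1 lies far to the left in all 3 knockouts (estimates -1.44, -1.22 and -1.35), as does Socs2 in E3-KO (-1.23), the intervals of Jak1 and Junb include 0, and Gbx2 lies to the right in E1-KO and E2-KO but not in E3-KO.

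Direct comparisons between the knockouts asked whether the enhancer lines differed in these genes. Of all tested genes 0.834% were called between E2-KO and E1-KO (0.346% lower and 0.488% higher). Of the 10, limma-trend called 0, and 0 had an unadjusted p under 0.05. Each of the 17 alternatives called 0 as well. The smallest unadjusted p of limma-trend was 0.0616, for Il6st (difference -0.21, 95% interval -0.44 to 0.01). Both E2-KO samples lay below both E1-KO samples for 1 gene (26% of all tested genes) and above for 4 (24.9%). The widest of the 10 intervals was that of Gbx2, with a difference of 0.01 (95% interval -0.50 to 0.52), and Pim1 differed by 0.22 (-0.02 to 0.45).

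E3-KO was lower than E1-KO in 2 of the 10 genes, beside 16.4% of all tested genes called lower (25.8% in all), and higher in 0, beside 9.42%. The samples were apart for 5 genes with E3-KO below (42.3% of all tested genes) and for 1 with E3-KO above (23.4%). The called genes were Lifr (-0.41, SE 0.12, limma-trend adjusted p = 0.0322) and Gbx2 (-0.88, SE 0.23, adjusted p = 0.02). Each had both E3-KO samples below both E1-KO samples. Lifr did not pass with median-ratio scaling (-0.32, adjusted p = 0.0846), with quantile normalization (-0.31, adjusted p = 0.08), or without either E1-KO sample, E3-KO replicate 1 or either WT sample (adjusted p = 0.0593 to 0.183). Gbx2 did not pass with no filter on low values (adjusted p = 0.0553) or without E1-KO replicate 1 (-0.75, adjusted p = 0.13), E3-KO replicate 1 (adjusted p = 0.0843) or E3-KO replicate 2 (adjusted p = 0.0541). Neither passed without E1-KO replicate 1, which left 0 of the 10 called, and 1 was called without E1-KO replicate 2, WT replicate 1 or WT replicate 2. Without E3-KO replicate 1 neither passed, but Socs2 (-0.55, adjusted p = 0.0299) and Pim3 (-0.45, adjusted p = 0.045) did. Without E3-KO replicate 2, Junb passed as higher (0.50, adjusted p = 0.0408).

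Against E2-KO, E3-KO was lower in 3 of the 10 genes, beside 10.1% of all tested genes called lower (15.6% in all), and higher in 0, beside 5.48%. The samples were apart for 6 genes with E3-KO below (35.4%) and for 1 with E3-KO above (19.1%). The differences were -0.62 for Socs2 (limma-trend adjusted p = 0.0429), -0.43 for Pim3 (adjusted p = 0.0448) and -0.89 for Gbx2 (adjusted p = 0.0298). For all 3 genes both E3-KO samples were below both E2-KO samples. Socs2 and Pim3 each lost the call under 13 of 17 alternatives, and 0 of the 10 passed when only the samples of these groups were fitted, with no filter on low values, or without E2-KO replicate 1, E3-KO replicate 2, WT replicate 1 or WT replicate 2. One of the 10 was called without E1-KO replicate 1, E1-KO replicate 2 or E2-KO replicate 2, and with the replicate block, where Socs2 and Pim3 had adjusted p = 0.0578 and 0.0665.

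**Figure D3:**
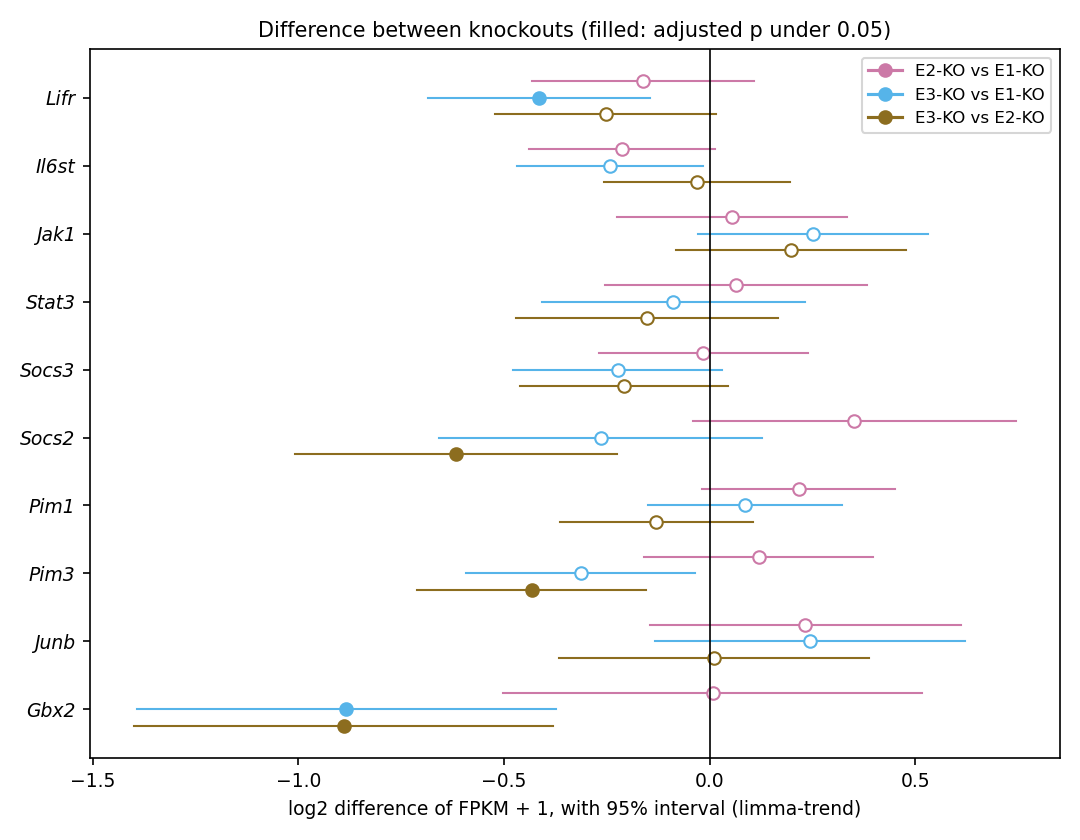
Difference between knockouts (horizontal axis, log2 difference of FPKM + 1) for each gene, with the limma-trend estimate as a point, filled where the adjusted p was under 0.05, and its 95% interval as a line. Filled points are Lifr (-0.41) and Gbx2 (-0.88) for E3-KO against E1-KO, and Socs2 (-0.62), Pim3 (-0.43) and Gbx2 (-0.89) for E3-KO against E2-KO.

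Other genes of the pathway were followed in a list of 60, of which 56 were in the files and 48 were tested. Against WT, 9 were called higher and 13 lower with E1-KO, 8 and 6 with E2-KO and 6 and 14 with E3-KO. Their median changes were -0.01, -0.19 and -0.12, beside -0.06, -0.08 and -0.15 for all tested genes. As shares of the 48 tested, 18.8% were higher and 27.1% lower with E1-KO (15% and 23% of all tested genes), 16.7% and 12.5% with E2-KO (14.2% and 22%), and 12.5% and 29.2% with E3-KO (13.9% and 30.8%).

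Among 3 tested ligand genes, Il11 was higher for E1-KO (0.80, limma-trend adjusted p = 0.0176) and Lif itself was lower there (-0.76, adjusted p = 0.0134), at 1.28 and 2.06 FPKM against 3.09 and 3.90 in WT. In E2-KO and E3-KO limma-trend called 0 of the 3, beside 36.1% and 44.7% of all tested genes. At an unadjusted p under 0.05 there was 1 for E2-KO (Il11) and 0 for E3-KO. Of 3 tested receptor genes, Cntfr, which encodes the binding chain for ciliary neurotrophic factor, was higher for E1-KO (1.58, adjusted p = 0.000441) and E2-KO (1.34, adjusted p = 0.000983) and differed by 0.50 in E3-KO (adjusted p = 0.0511). It was at 0.32 and 0.31 FPKM in WT and reached 3.64 and 2.33 in E1-KO. Cntfr passed the filter on low values only through E1-KO and E2-KO, the groups where it is high, so it had to differ. Il6ra, the interleukin 6 binding chain, was lower for E1-KO (-0.48) and E3-KO (-0.43), and Il27ra was lower for E3-KO (-0.58). Il27ra was at 0.57 and 0.37 FPKM in E3-KO, against 1.29 and 1.09 in WT. It passed the filter on low values only through the other groups, where it is higher. With 3 tested genes each, these counts are no result about the ligands or the receptors as groups.

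Of the 2 other tested JAK family kinases, Tyk2 was lower in all 3 knockouts (-0.68, -0.61 and -0.99, with limma-trend adjusted p = 0.00331, 0.00591 and 0.000461) and Jak2 in none. Among 5 tested STAT genes, Stat6 was higher for E1-KO (0.54) and E2-KO (0.62), and 0 were lower in either. In E3-KO 3 of 5 were lower, beside 30.8% of all tested genes, with Stat2 at -0.57 and Stat5a at -0.53. Stat5a is a low gene, at 0.72 to 1.95 FPKM over the samples. With 5 genes these counts are no result about the STAT genes as a group. Stat6 is known for interleukin 4 signalling, and Stat2 for interferon responses.

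Of the 12 tested inhibitor genes, 2 were higher and 3 lower with E1-KO, 2 and 1 with E2-KO, and 1 and 2 with E3-KO. Over all tested genes the shares were 15% higher and 23% lower, 14.2% and 22%, and 13.9% and 30.8%, so these counts are no result about the inhibitors as a group. Ptpn1, a phosphatase that acts on JAK kinases, was higher in all 3 (1.11, 0.86 and 0.92, with limma-trend adjusted p = 0.000284, 0.000943 and 0.000449), from 20.9 and 21.7 FPKM in WT to between 36.0 and 48.3 in the knockouts. The phosphatase gene Ptpn6 was higher for E1-KO (0.53). Pias3, named for inhibiting activated STAT3, was lower for E1-KO (-0.93, adjusted p = 0.0109), and Socs6 was lower for E1-KO (-0.37) and E3-KO (-0.59). Of the 5 adaptors, which link gp130 to the MAP kinase and PI3 kinase branches, Gab1 was higher in all 3 knockouts (0.44, 0.29 and 0.28), Shc1 was higher for E1-KO (0.35) and lower for E3-KO (-0.25), and Grb2 was lower for E1-KO (-0.49).

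Among 18 tested genes listed as other targets, 2 were higher and 6 lower with E1-KO, 2 and 4 with E2-KO, and 4 and 5 with E3-KO. The lower counts are 33.3%, 22.2% and 27.8% of the 18, beside 23%, 22% and 30.8% of all tested genes, and the higher counts 11.1%, 11.1% and 22.2%, beside 15%, 14.2% and 13.9%. Klf4, a STAT3 target and pluripotency factor, was lower in all 3 knockouts (-0.97, -1.17 and -1.08, with limma-trend adjusted p = 0.000451, 0.000247 and 0.000189). Sp5, also known as a target of WNT signalling, was lower too (-2.30, -2.99 and -2.49), at 0.37 to 1.25 FPKM in the knockouts against 9.07 and 10.8 in WT. It passed the filter on low values mainly through its WT level, so it had to differ. Id1, best known as a target of BMP signalling, was higher (1.87, 1.47 and 2.05), as was Myc (1.77, 1.75 and 0.93), from 1.46 and 1.37 FPKM in WT. Tfcp2l1, a STAT3 target singled out after its values had been seen, was 159.3 and 165.2 FPKM in WT, with E1-KO at 73.4 and 87.2, E2-KO at 87.0 and 96.6 and E3-KO at 107.9 and 107.5, and its log2 changes were -1.01, -0.82 and -0.59 (adjusted p = 0.000331, 0.000921 and 0.0028). Klf4, Tfcp2l1 and Sp5 were lower, as Pim1 and Pim3 were, and Id1 and Myc were higher. The named targets were picked by the size of their change, or for Tfcp2l1 after its values had been seen. They are no result about the targets as a group.

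**Figure D4:**
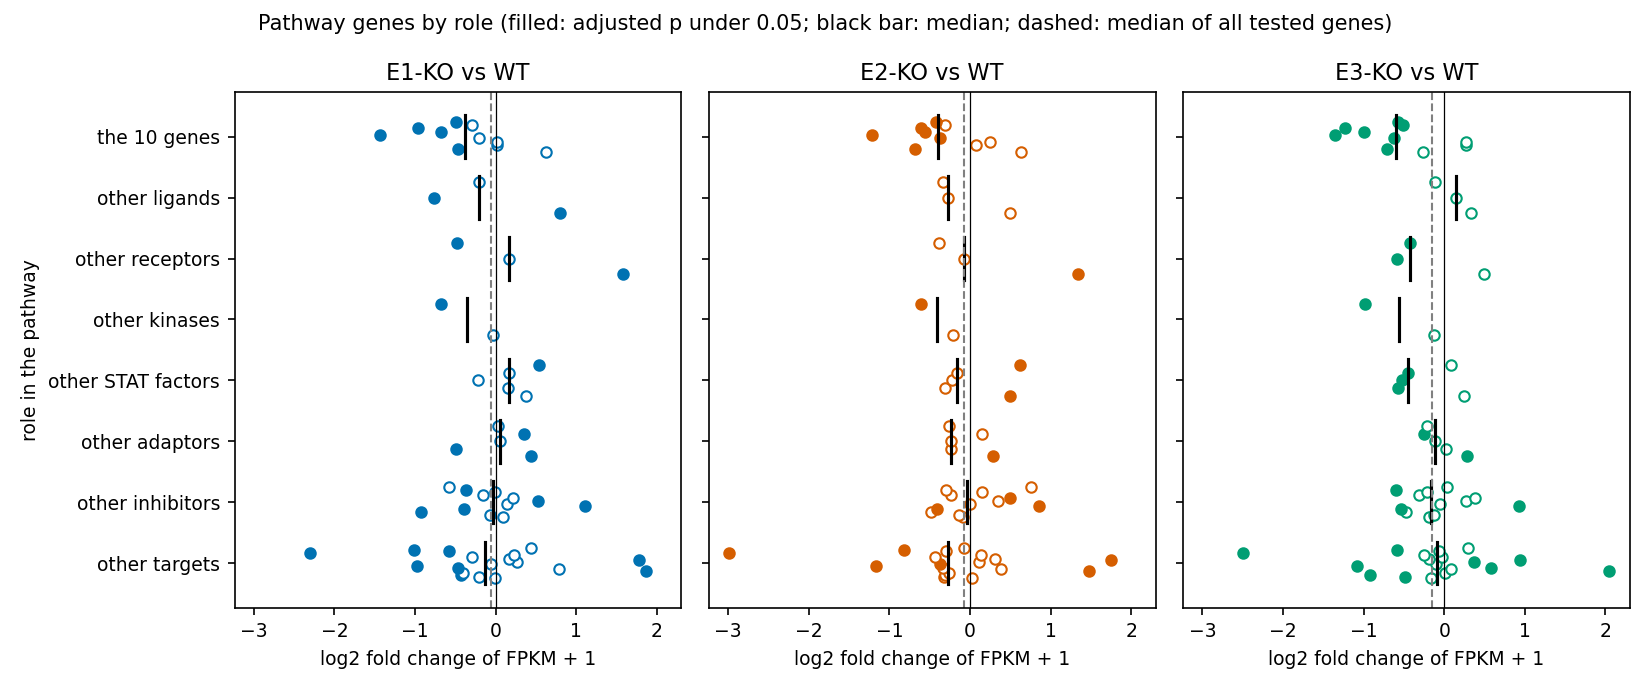
Change against WT (horizontal axes, log2 difference of FPKM + 1) of the 10 genes and of the other tested pathway genes by role, 1 panel per knockout, each point a gene, filled where the limma-trend adjusted p was under 0.05, with the median of each role as a black bar and the median of all tested genes as a dashed line. The bar of the 10 genes lies left of the dashed line in each panel (-0.38, -0.40 and -0.60), and the other targets spread to both sides, from Sp5 (-2.30, -2.99 and -2.49) to Id1 (1.87, 1.47 and 2.05) or Myc (1.77, 1.75 and 0.93).

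The genes whose log2(FPKM + 1) followed Lifr most closely over the 8 samples were Ifrd1 (Pearson r = 0.995), Pds5a (0.986) and Tbk1 (0.984). Ifrd1 was 53.9 and 57.7 FPKM in WT, with E1-KO at 43.6 and 49.7, E2-KO at 44.5 and 39.1 and E3-KO at 33.1 and 37.9. Its lowest samples were those of E3-KO, but it was picked for following Lifr, so this is no separate result. For Stat3 they were Lrrc58 (0.976), Trpc4ap (0.971) and Msl3 (0.965), and for Socs3 Acap1 (0.973), Mcts1 (0.969) and Lgals8 (0.965). Respectively 53, 16 and 22 tested genes had r above 0.95 with Lifr, Stat3 and Socs3. These are descriptions over 8 samples that share libraries and fall into WT and knockouts.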

How the data were processed

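Total RNA libraries (total RNA-seq kit, paired reads of 150 bases) of 8 samples had been sequenced, per the labels' protocols. The authors deposited 1 value per gene and sample, taken here as FPKM because the values are not whole, the totals differ (454974 to 532007) and Cufflinks is named. The submitters' processing notes name Trimmomatic 0.36, TopHat2 2.0.12, Cufflinks 2.2.1 and build mm9, without roles. The annotation, strand setting and scaling are not given in the sources used here. Whole reads were not recovered: 9.43% to 16.5% of low-value ratios between samples fell at the most frequent ratio, so the relative depths are rough and no counting interval is given.

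Each file held 18774 rows and 17812 identifiers. Of 660 identifiers with repeated rows, 576 were resolved by their place in the row order (GENCODE M21) and 84 left out. A table of gene names gave symbols to 17262 of all identifiers. Coordinates of promoters refer to GRCm38.p6, not to mm9. Genes averaging 1 FPKM or more were tested on log2(FPKM + 1), pseudocount 1, with limma 3.58.1 in R 4.3.3 (limma-trend, all 8 samples, group as the only term, 4 residual degrees of freedom, two-sided) and called where the Benjamini-Hochberg adjusted p over all tested genes was under 0.05. The fit was tested on simulated data. Figures used matplotlib 3.10.9.

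The 10 genes and all lists were chosen with earlier results of these data known. All 10 are named. Of the other pathway genes, each role names up to 2 per direction with the largest change among those called (1 such gene is not reported here), and Lifr, Stat3 and Socs3 each name the 3 genes with the highest correlation. The labels call the 2 samples of a group biological duplicates and do not say whether they are separate clones, so p-values measure the spread between these samples. Alternatives were the replicate block, the pair of groups alone, quantile normalization, median-ratio scaling, no filter, a mean of at least 5 FPKM, a pseudocount of 0.1, limma without trend, summed repeated rows and leaving out each sample.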

Additional observations from a re-analysis of the deposited data

Results flagged for a closer look

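In 5 cases the change of a gene against WT differed between knockouts by a direct limma-trend test of one knockout against another. Lifr was lower in E3-KO than in E1-KO by a log2 difference of -0.415, and Gbx2 by -0.883. Set against E2-KO, the E3-KO samples were lower in Socs2 (-0.617), Pim3 (-0.433) and Gbx2 (-0.89). Of all tested genes, 16.4% were called lower in E3-KO than in E1-KO and 10.1% lower than in E2-KO. In each case both E3-KO samples were below both samples of the other knockout, as for 42.3% and 35.4% of all tested genes. All 5 lost their call under some alternatives. Lifr lost it under 7 of 17, and Socs2 and Pim3 under 13 of 17 each. Gbx2 lost it under 4 of 16 against E1-KO and 7 of 16 against E2-KO. No group held the 4 samples that a search for outlying samples needs.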

How the results depend on the processing

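Of 60 results for single genes (10 genes, 6 comparisons), 23 were called, and 10 of these kept their call under every alternative tried: Pim1 in all 3 knockouts, Socs2 and Pim3 in E1-KO and E3-KO, Il6st in E2-KO and E3-KO, and Lifr in E3-KO, all against WT. Of 1014 alternative values, 892 kept direction and call, 79 lost the call, 19 gained it and 24 changed sign, all 24 among differences that were not called. The cause was not tested. Gbx2 gave no value with a mean of at least 5 FPKM, since it was not tested there.

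The number of genes called between E2-KO and E1-KO (94) was 31 with the replicate block, 1 with the pair of groups alone, 1 with no filter and 58 with a mean of at least 5 FPKM. That between E3-KO and E2-KO (1754) was 671 with the pair alone. Of the 10 genes, those called between E3-KO and E2-KO (3) were 1 with the replicate block, 0 with the pair alone, 1 with quantile normalization, 1 with median-ratio scaling, 0 with no filter and 1 without trend. Those called between E3-KO and E1-KO (2) were 1 with quantile normalization, median-ratio scaling, no filter or a mean of at least 5 FPKM. Those called between E2-KO and WT (6) were 3 with no filter. Signs turned for Il6st between E3-KO and E2-KO (0.0515 with quantile normalization, 0.052 with median-ratio scaling), Socs3 between E2-KO and E1-KO (0.000486 with median-ratio scaling), Stat3 between E3-KO and E1-KO (0.0106 with median-ratio scaling) and Gbx2 between E2-KO and E1-KO (-0.00244 with a pseudocount of 0.1, -0.112 with repeated rows summed).

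With 1 of the 8 samples left out, a group is left with 1 sample that is assumed to vary like the others. Genes called against WT then ranged between 2040 and 4673 (E1-KO), 1870 and 4454 (E2-KO), and 2828 and 5339 (E3-KO), the lowest each time without WT replicate 2. Between knockouts they ranged from 2 to 262 (E2-KO and E1-KO), 1309 to 3279 (E3-KO and E1-KO) and 974 to 1554 (E3-KO and E2-KO). Of the 10 genes, 3 to 6, 2 to 6 and 5 to 9 were called against WT, and 0 to 0, 0 to 2 and 0 to 2 between knockouts in the same order. Values that changed sign ranged from -0.0749 to 0.117 (Jak1) and -0.109 to 0.15 (Junb) for E1-KO against WT, and from -0.0203 to 0.172 (Jak1) for E2-KO against WT. Between E2-KO and E1-KO they ranged from -0.0041 to 0.113 (Jak1), -0.0578 to 0.186 (Stat3), -0.142 to 0.111 (Socs3) and -0.359 to 0.373 (Gbx2). Between E3-KO and E1-KO they ranged from -0.184 to 0.00737 (Stat3), -0.547 to 0.0171 (Socs2) and -0.0115 to 0.497 (Junb), and between E3-KO and E2-KO from -0.0778 to 0.0177 (Il6st) and -0.245 to 0.264 (Junb).

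Same-numbered samples showed no shared deviation from their group means (average correlation 0.00483, from -0.0418 to 0.0889 over 6 pairs of groups), so the replicate block adds only a shared number. With it, 4057, 3854 and 4808 genes were called against WT, and Lifr and Stat3 in E2-KO lost their call. With 2 samples a group, small differences cannot be told from the spread, and the lowest gene, Gbx2, is limited most.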
